A study of Mus musculus with 4 samples.

Results

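The pregnancy-specific glycoprotein genes (Psg) and the carcinoembryonic antigen-related cell adhesion genes (Ceacam) form one family of immunoglobulin-like proteins. Its members were taken as all genes whose array row carried a single symbol made of Psg or Ceacam and a number. The rule gave 28 genes of 30142 measured, 13 Psg and 15 Ceacam, each with 1 row. All 28 lie on mouse chromosome 7 in the RefSeq annotation of GRCm38.p6. The study compared outgrowths of mouse blastocysts, flushed at 3.5 days post coitum from matings between Tip110+/- parents and then cultured for 4 to 6 days in a stem cell medium that contains knockout serum replacement. Wild-type and Tip110-/- outgrowths were set against each other, with 2 Affymetrix whole-transcript arrays per genotype and no treatment. Tip110 is the protein of Sart3, a factor that helps spliceosomal U4 and U6 RNAs to pair again. Replicate 1 of either genotype pooled 3 outgrowths, whereas replicate 2 came from 1, so that array stands for a single embryo. RNA yields were 746 and 178 pg for wild-type against 165 and 144 pg for Tip110-/-, which makes 249, 178, 55.0 and 144 pg per outgrowth.

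Psg proteins are secreted by trophoblast, the outer cell lineage of the blastocyst that builds the placenta. They act on maternal immune cells, platelets and blood vessels, among other ways by releasing active TGF-beta1 from its latent form, and mouse PSG17 binds the tetraspanin CD9. Ceacam1 is a membrane protein that joins cells by binding itself and carries inhibitory signalling motifs in its long cytoplasmic tail. Rodents hold further Ceacam genes next to the Psg genes, several of which are made in trophoblast.

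The upstream sequences show how closely some members are related. RefSeq windows of 250 bases before the annotated start (GRCm38.p6) were at hand for 23 of the 28 members, without Ceacam14, Ceacam16, Psg16, Psg19 and Psg22. Where a gene had more than 1 annotated start, the window listed at the top of the table was used. Over 45 pairs of Psg genes the identity in a global alignment ranged from 48.1% to 96.4% with a median of 73.8%. Over 208 pairs with at least 1 Ceacam gene it ranged from 39.2% to 82.8% with a median of 49.8%. The split does not follow the names throughout. Ceacam3 and Ceacam5 reached 77.9% and 76.4% with Psg25, Psg29 at most 70.3% with another Psg gene, and Psg20 48.1% to 53.4%. Psg18 and Psg28 were the closest pair at 96.4%, and Psg23 and Psg21 followed at 96.1%. Probes for such genes can take up transcripts of their neighbours, which was not tested. The windows of Psg25 (chr7:18532228-18532477, minus strand), Psg28 (chr7:18432056-18432305, minus strand) and Psg29 (chr7:17203227-17203476, plus strand) are shown because Psg25 and Psg28 kept their difference in most of the fits run, and the groups overlapped in Psg29. Capitals mark TTATC, the reverse complement of GATAA, the core of sites for GATA factors.
Psg25: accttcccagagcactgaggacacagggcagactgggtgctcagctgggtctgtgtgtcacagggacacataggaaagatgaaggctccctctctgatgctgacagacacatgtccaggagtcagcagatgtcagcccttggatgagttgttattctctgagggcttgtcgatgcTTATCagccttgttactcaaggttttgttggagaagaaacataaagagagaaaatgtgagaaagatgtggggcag
Psg28: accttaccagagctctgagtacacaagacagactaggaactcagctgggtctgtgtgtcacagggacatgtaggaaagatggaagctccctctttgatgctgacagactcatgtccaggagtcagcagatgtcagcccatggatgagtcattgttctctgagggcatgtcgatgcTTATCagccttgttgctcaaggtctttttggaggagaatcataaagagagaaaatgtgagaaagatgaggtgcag
Psg29: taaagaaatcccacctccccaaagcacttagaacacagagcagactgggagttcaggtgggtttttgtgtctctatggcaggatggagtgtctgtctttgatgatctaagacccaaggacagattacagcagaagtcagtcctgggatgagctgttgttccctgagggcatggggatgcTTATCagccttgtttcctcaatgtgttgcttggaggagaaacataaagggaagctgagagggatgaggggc
In all 3, TTATC sits inside the same stretch of 19 bases, GATGCTTATCAGCCTTGTT, and begins 75, 75 and 71 bases before the start. That stretch also occurs in Psg17, Psg18 and Psg26, and in 7 of the 32851 windows of all genes in the table. GATAA on either strand was in 9 of 10 Psg windows, in 6 of 13 Ceacam windows and in 22.6% of all windows. Other motifs were also searched on both strands, and overlaps between different motifs were not removed. The TATA box, TATAAA, was in 0 Psg and 4 Ceacam windows against 12.4% of all, CACCC (KLF core) in 3 and 6 against 52.0%, and AGGTCA (nuclear receptor half-site) in 2 and 1 against 14.0%. GGAAGTG (ETS element) was in 2 and 2 against 8.55%, and CCAAT in 1 and 0 against 33.8%. GGGCGG (GC box) and CCGGAA (ETS core) were in 0 of the 23 windows, against 32.7% and 12.0% of all. These are matches of letters and not binding sites.

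The windows of Ceacam15 (chr7:16675706-16675955, minus strand) and Ceacam9 (chr7:16721679-16721928, plus strand) are shown because these genes share an array pattern described below. Capitals mark the longest exact stretch they share, of 16 bases, which is in 2 of the 32851 windows.
Ceacam15: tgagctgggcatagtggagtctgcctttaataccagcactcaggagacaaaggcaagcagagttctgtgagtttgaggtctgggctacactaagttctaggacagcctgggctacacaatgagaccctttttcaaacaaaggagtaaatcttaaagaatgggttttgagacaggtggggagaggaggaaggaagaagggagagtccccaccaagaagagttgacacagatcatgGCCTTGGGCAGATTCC
Ceacam9: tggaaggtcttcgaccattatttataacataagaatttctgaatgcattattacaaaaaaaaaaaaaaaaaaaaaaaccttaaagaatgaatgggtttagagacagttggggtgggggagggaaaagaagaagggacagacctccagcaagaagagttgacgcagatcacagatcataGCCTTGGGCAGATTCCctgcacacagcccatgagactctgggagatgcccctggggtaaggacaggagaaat
Over the whole window they were 47.4% identical, near the median of pairs with a Ceacam gene. The windows of Ceacam1 (chr7:25477626-25477875, minus strand), Ceacam10 (chr7:24776917-24777166, plus strand) and Ceacam2 (chr7:25540005-25540254, minus strand) are shown because these were the 3 members with lower signal in both Tip110-/- arrays. Capitals mark the longest stretch all 3 share, of 20 bases, found in 4 of the 32851 windows.
Ceacam1: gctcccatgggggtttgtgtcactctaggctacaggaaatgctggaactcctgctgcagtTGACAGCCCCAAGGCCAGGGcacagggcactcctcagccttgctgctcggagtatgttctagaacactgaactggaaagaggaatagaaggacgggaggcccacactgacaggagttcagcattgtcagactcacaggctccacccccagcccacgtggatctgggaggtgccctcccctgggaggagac
Ceacam10: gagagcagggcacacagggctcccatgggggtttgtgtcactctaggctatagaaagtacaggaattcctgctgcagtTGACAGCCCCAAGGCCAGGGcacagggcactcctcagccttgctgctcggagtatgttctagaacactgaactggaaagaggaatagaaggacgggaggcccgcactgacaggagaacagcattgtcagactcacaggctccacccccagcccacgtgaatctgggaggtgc
Ceacam2: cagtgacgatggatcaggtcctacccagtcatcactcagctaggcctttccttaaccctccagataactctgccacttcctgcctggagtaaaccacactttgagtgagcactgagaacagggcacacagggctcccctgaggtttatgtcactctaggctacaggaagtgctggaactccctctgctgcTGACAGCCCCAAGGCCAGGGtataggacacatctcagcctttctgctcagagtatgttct
Ceacam1 and Ceacam10 were 82.8% identical over the window. The shared stretch begins 190 bases before the start in Ceacam1, 172 in Ceacam10 and 60 in Ceacam2, so the Ceacam2 window covers a shifted part.

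Signals are log2 values as deposited. The median of 23 antigenomic background rows, which match no mouse transcript, read 2.83 and 2.82 in wild-type against 3.05 and 2.94 in Tip110-/-, and the median of all genes was 4.21 and 4.22 against 4.45 and 4.32. Both medians were thus higher in Tip110-/-, and the median difference of all genes was 0.15. The highest background row went the other way, at 6.12 and 5.80 in wild-type against 4.78 and 4.81 in Tip110-/-. On all 4 arrays 15 of the 28 members lay below it, among them Psg23, Psg27, Ceacam11 and Ceacam13, and Psg25 did so on 3 arrays. Only Psg29, Psg22 and Ceacam1 lay above it on all 4. Probes differ in how well they bind, so levels are used here to tell how far a row stands from background and not to rank genes. With 2 arrays against 2, an exact permutation test cannot go below a p of 0.333. Single genes were therefore tested only in limma's moderated fit over all 30142 genes. Of these, 0 passed an adjusted p under 0.05, 0 of the 28 members included, and 3817, or 12.7%, passed the looser mark of an unadjusted p under 0.05. That mark, named "the mark" from here on, is a description of size against spread and not a call of change.

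**Figure D1:**
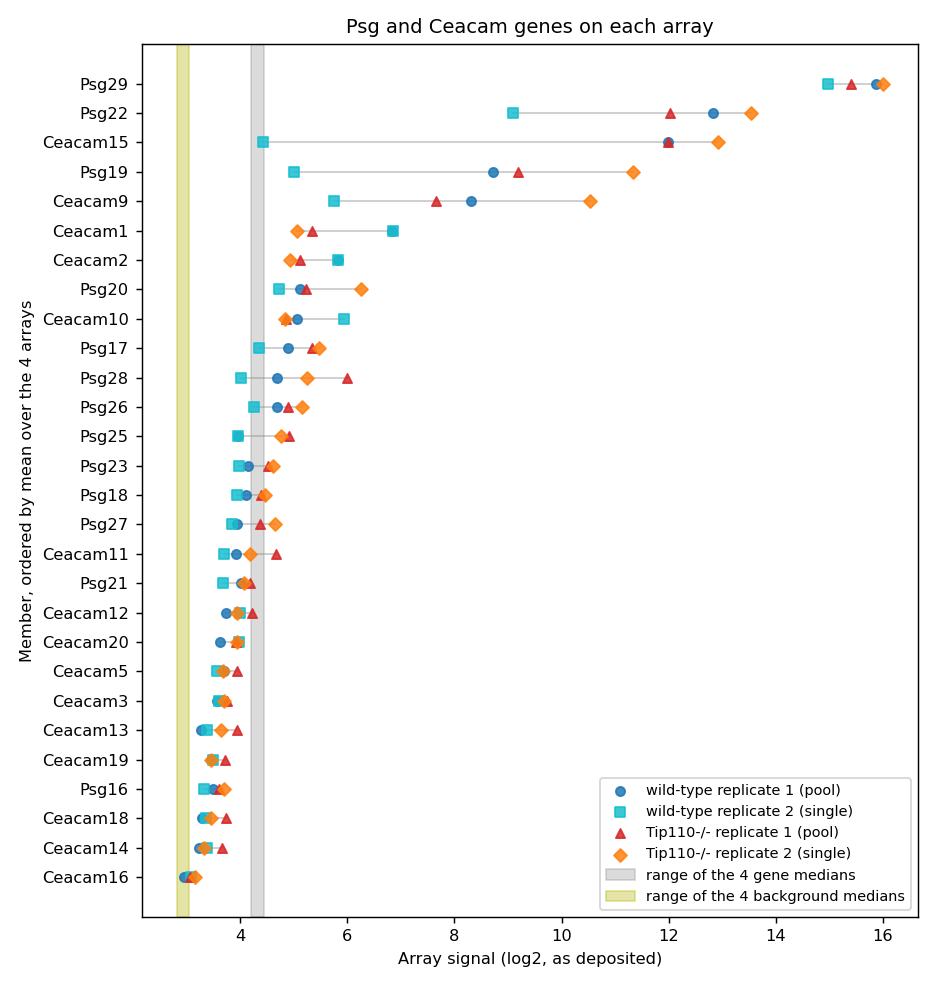
Signal (log2, as deposited; horizontal axis) of each of the 28 members (vertical axis, ordered by mean) on the 4 arrays, 1 symbol per array. Bands show the range of the array medians of all genes and of the background rows. In 4 members near the top, Psg22, Ceacam15, Psg19 and Ceacam9, the wild-type single outgrowth stands far to the left of the other 3 arrays.

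Signals of the Psg genes were higher in Tip110-/- outgrowths in all 13 point estimates, with a median difference of 0.61 against 0.15 over all genes, of which 69.6% had a higher estimate. In 11 of 13 both Tip110-/- arrays lay above both wild-type arrays, which held for 39.9% of all genes. Past the mark and higher were 5 of 13, Psg17, Psg23, Psg25, Psg27 and Psg28, against 8.99% of all genes, and 0 were past the mark and lower, against 3.67%. The fit's adjusted p for these 5 ran from 0.318 to 0.378. Psg23 and Psg27 lay below the highest background row on all 4 arrays, Psg25 on 3, and Psg17 and Psg28 on 2. Higher signal in Tip110-/- was more common among dim genes. Of 15071 genes at or below the median gene, 13089 had a higher estimate. Without overlap 8499 were higher, and 1960 were past the mark and higher. Above it these counts were 7895, 3541 and 751 of 15071, and among the 8 Psg genes above it 8, 6 and 3. Probes of closely related Psg genes can take up each other's transcripts, so the 13 rows may not be independent. In a bulk sample, more cells of a type and more RNA per cell cannot be told apart. Without the wild-type single outgrowth only Psg25 of the 13 stayed past the mark. With each array centred on its gene median 2 were past it, Psg25 and Psg28, and the median difference was 0.45 against -0.02 over all genes.

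Psg25 had the smallest p of the Psg genes. It read 3.96 and 3.95 in wild-type against 4.92 and 4.76 in Tip110-/-. The arrays of a genotype lay close together and the groups did not overlap, but wild-type was below the median of all genes. The difference was 0.88 ± 0.17 (SE), means of 3.96 ± 0.01 and 4.84 ± 0.11 (SD, n = 2 each), with a limma adjusted p of 0.318. It stayed past the mark in all 13 alternatives run, at 0.67 to 0.96 and adjusted p of 0.218 to 0.624.

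Psg28 was at 4.68 and 4.03 in wild-type against 6.00 and 5.25 in Tip110-/-. It was the Psg gene past the mark with the greatest difference, 1.27 ± 0.37 (SE), limma adjusted p = 0.345. Here the pool, not the single outgrowth, was the higher Tip110-/- array. The groups did not overlap, and the mark was lost without wild-type replicate 2 (0.94) or Tip110-/- replicate 1 (0.90).

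Psg17, whose protein is the CD9 ligand, was at 4.90 and 4.36 in wild-type against 5.33 and 5.48 in Tip110-/-. The difference was 0.78 ± 0.27 (SE) (limma adjusted p = 0.378), with no overlap between the groups. Psg27 was at 3.94 and 3.86 against 4.37 and 4.66, a difference of 0.61 ± 0.17 (SE), and Psg23 at 4.15 and 3.98 against 4.52 and 4.61, a difference of 0.50 ± 0.16 (SE). Both were below the median of all genes in wild-type. All 3 fell short of the mark when the arrays were centred on their gene median, at 0.61, 0.45 and 0.33.

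Psg20 was at 5.12 and 4.73 in wild-type against 5.23 and 6.25 in Tip110-/-. Its high value was that of the single Tip110-/- outgrowth alone, and the difference of 0.81 ± 0.42 (SE) was not past the mark (limma adjusted p = 0.428). The remaining Psg genes, Psg16, Psg18, Psg21 and Psg26, differed by 0.25, 0.39, 0.28 and 0.55, none past the mark. Psg16, known also as a brain form of the family, was nearest to background at 3.33 to 3.71.

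Psg29 and Psg22 lay above every background row on all 4 arrays, and Psg19 on 3, all but the wild-type single outgrowth. Psg29 was at 15.86 and 14.97 in wild-type against 15.41 and 16.00 in Tip110-/-. The groups overlapped, and the difference of 0.29 ± 0.40 (SE) was smaller than the spread within wild-type (limma adjusted p = 0.715). Without the wild-type single outgrowth it was -0.16, and without the Tip110-/- one -0.01.

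Psg22, which is made by trophoblast giant cells, was at 12.83 in the wild-type pool and 9.09 in the wild-type single outgrowth, against 12.02 and 13.53 in Tip110-/-. One wild-type array was low and the other lay between the Tip110-/- arrays. The difference was 1.81 ± 1.35 (SE) (limma adjusted p = 0.513) and -0.06 without that low array. Psg19 was at 8.72 and 5.02 in wild-type against 9.18 and 11.33 in Tip110-/-. It differed by 3.39 ± 1.43 (SE) (limma adjusted p = 0.397), and by 1.54 without the wild-type single outgrowth. The groups did not overlap, but wild-type and Tip110-/- pools were only 0.47 apart.

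**Figure D2:**
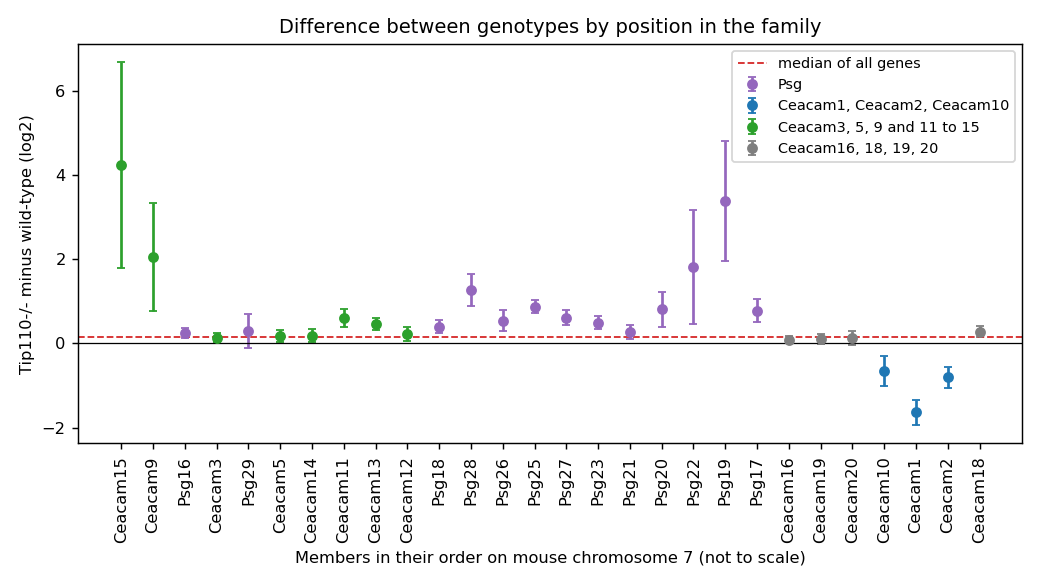
Difference in signal (Tip110-/- minus wild-type, log2; vertical axis) for the 28 members in their order on chromosome 7 (horizontal axis, not to scale). Points are limma estimates, bars their SE, and the dashed line is the median of all genes at 0.15. Ceacam10, Ceacam1 and Ceacam2 lie below 0, and the points with long bars are Ceacam15, Ceacam9, Psg22 and Psg19.

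The adhesion gene Ceacam1 and its near relatives Ceacam2 and Ceacam10 were lower in both Tip110-/- arrays, and the other 12 Ceacam genes had higher point estimates, as did 69.6% of all genes. The median difference of the 15 was 0.18, near the 0.15 of all genes, and it was -0.027 with quantile normalization and -0.028 with cyclic loess. Past the mark were 2 lower, Ceacam1 and Ceacam2, against 3.67% of all genes, and 2 higher, Ceacam11 and Ceacam13, against 8.99%. Groups did not overlap in 3 lower and 4 higher, where all genes gave 12.9% and 39.9%. Lower signal was more common among genes above the median gene. Of 15071 such genes, 1071 were past the mark and lower, and 3484 were lower without overlap. At or below it these counts were 35 and 415 of 15071, and among the 5 Ceacam genes above it 2 and 3. Ceacam2 and Ceacam10 lay below the highest background row in the wild-type pool, and Ceacam1 above it on all 4 arrays. That row was itself lower in Tip110-/-, at 6.12 and 5.80 against 4.78 and 4.81.

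Ceacam1 read 6.83 and 6.85 in wild-type against 5.35 and 5.06 in Tip110-/-. The wild-type arrays were nearly equal and both Tip110-/- arrays were lower. The difference was -1.64 ± 0.31 (SE), means of 6.84 ± 0.02 and 5.20 ± 0.20 (SD, n = 2 each), with a limma adjusted p of 0.318. It stayed past the mark in all 13 alternatives, at -1.81 to -1.49 and adjusted p of 0.235 to 0.598. It differed by -1.48 between the pools and by -1.79 between the single outgrowths.

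Ceacam2, a close copy of Ceacam1, was at 5.82 in both wild-type arrays and at 5.12 and 4.93 in Tip110-/-, a difference of -0.80 ± 0.25 (SE) (limma adjusted p = 0.353). Transcripts of Ceacam1 can reach its probes and the other way round, so the 2 rows may not be independent. It lost the mark with a replicate term, and without wild-type replicate 1, wild-type replicate 2 or Tip110-/- replicate 2. Ceacam10, which lacks a membrane anchor, was at 5.07 and 5.94 in wild-type against 4.87 and 4.85 in Tip110-/-. Its difference of -0.65 ± 0.35 (SE) was not past the mark (limma adjusted p = 0.437) and was -0.21 without the wild-type single outgrowth. Without the wild-type pool it was -1.08 and past the mark.

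Beside these genes, the 6 epiblast markers Pou5f1, Nanog, Sox2, Tdgf1, Dppa4 and Fgf4 were all lower and past the mark, at -7.25 to -3.04. Their summed signal was 14.41 and 15.66 (log2) in wild-type against 10.86 and 7.92 in Tip110-/-. Its part in the lower Ceacam1 and Ceacam2 signal was not tested. RNA per outgrowth was lower in both Tip110-/- arrays as well, so RNA amount and genotype cannot be told apart.

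Ceacam15 and Ceacam9, next to each other among the members, had the pattern of Psg22 and Psg19. Ceacam15 was at 11.99 in the wild-type pool and 4.44 in the wild-type single outgrowth, against 11.98 and 12.92 in Tip110-/-. The pools differed by -0.01, while in the wild-type single outgrowth the signal was near the median of all genes. The difference was 4.23 ± 2.45 (SE) (limma adjusted p = 0.449), and 0.46 without that array. Ceacam9, a gene of the trophoblast, was at 8.30 and 5.76 in wild-type against 7.65 and 10.52 in Tip110-/-, a difference of 2.06 ± 1.29 (SE) (limma adjusted p = 0.466). It was 0.78 without the wild-type single outgrowth, 3.33 without the wild-type pool, 0.62 without the Tip110-/- single outgrowth and 3.49 without the Tip110-/- pool, none past the mark.

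In these 4 members, Psg22, Psg19, Ceacam15 and Ceacam9, the wild-type single outgrowth lay below each of the other 3 arrays by at least 1 on the log2 scale, 4 of 28 members against 1.76% of all genes. It lay below the next array by 2.93, 3.70, 7.54 and 1.89. The gap of at least 1 was met by 528 of 15071 genes above the median gene and by 1 of 15071 at or below it. All 4 members were among the 13 above the median gene. This rule was set after the values were seen. The 4 also had their highest value in the single Tip110-/- outgrowth, so the arrays with the lowest and the highest signal were both single outgrowths. In pools the genotypes differed by -0.81, 0.47, -0.01 and -0.65, and in single outgrowths by 4.44, 6.31, 8.48 and 4.76. Opposite signs in pools and single outgrowths were found in 8 of 28 members and in 35.0% of all genes.

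**Figure D3:**
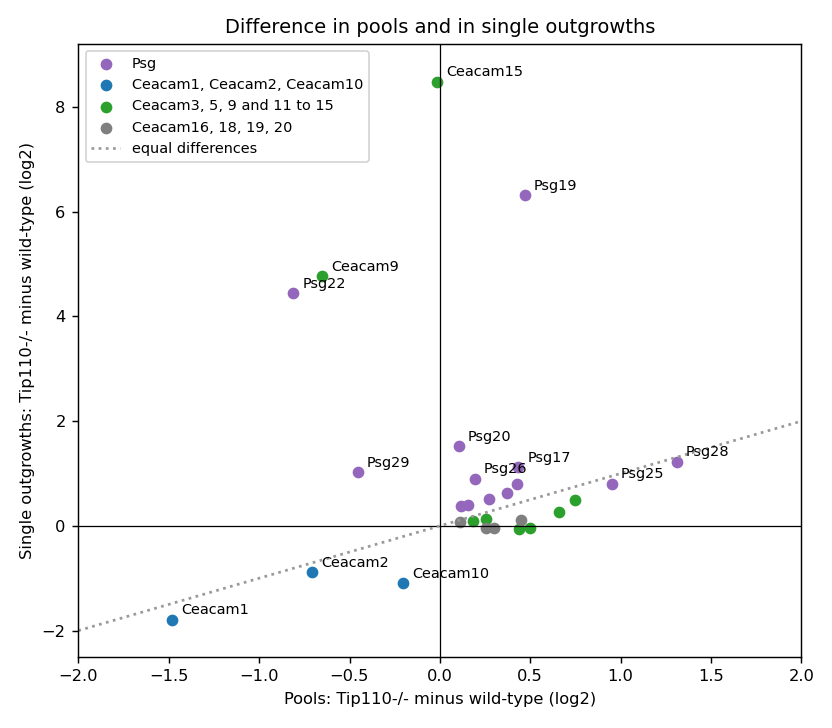
Difference between genotypes (Tip110-/- minus wild-type, log2) in the pools (horizontal axis) and in the single outgrowths (vertical axis), 1 point per member, each axis from 1 array per genotype. Points on the dotted line differ equally. Ceacam1, Ceacam2, Psg25 and Psg28 lie near it, and Ceacam15, Psg19, Ceacam9 and Psg22 lie far above it. The axes have unequal scales.

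Marker lists give the make-up of the same arrays. Some trophoblast markers stood far above background on all 4: the keratin gene Krt8 was at 16.88 and 16.08 in wild-type against 16.95 and 17.22 in Tip110-/-, and the giant cell gene Prl2c2 at 17.44 and 16.68 against 17.17 and 18.33. Of 7 trophoblast stem genes measured, 6 had higher estimates. The other, Esrrb, was past the mark and lower (3.67% of all genes were), at 5.28 and 5.09 against 4.15 and 4.26 (limma adjusted p = 0.318). Cdx2 and Elf5 were dim, at 4.66 to 6.10 and 5.20 to 6.39. The summed stem list mostly repeats Krt8 and Krt18. The summed giant cell list (8 of 10 genes measured), at 17.49 and 16.75 against 17.22 and 18.38, mostly repeats Prl2c2. Of its 8 genes 4 were lowest in the wild-type single outgrowth, against 33.4% of all genes. The placental cathepsin Cts8 was one of them, at 11.04 and 4.21 against 10.59 and 11.66. Hand1, Ctsq, Prl4a1 and Lamc1 were not, and the prolactin family gene Prl4a1 ran the other way within wild-type, at 4.16 and 9.04 against 9.28 and 10.73. In the other lists, 6 of 7 primitive endoderm genes were lowest in the wild-type single outgrowth. So were 3 of 7 trophoblast stem, 3 of 8 spongiotrophoblast, 2 of 5 blood cell, 2 of 7 fibroblast and 0 of 6 epiblast genes. These counts take a gap of any size. Among the primitive endoderm genes, Dab2 was at 4.74 in that array and 4.77 in the next, and Ttr at 3.70 and 3.80. Gata4 had the widest gap of them, at 4.21 and 4.82.

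The summed spongiotrophoblast list (8 genes) was 10.86 and 8.53 against 11.58 and 12.08. It mostly repeats Plac8, at 10.76 and 7.85 against 11.25 and 10.83, joined by Prl8a9 in Tip110-/-. Of the list's genes 5 were near background (under 5) on every array, among them Prl8a8 and the list's defining gene Tpbpa, the latter at 3.83 to 4.38. Past the mark and higher were 2 of 8, against 8.99% of all genes, both of the prolactin family. Prl8a9 was at 4.28 and 4.74 against 8.86 and 11.23, a difference of 5.53 (limma adjusted p = 0.290), and Prl8a8 at 3.76 and 3.82 against 4.40 and 4.42, a difference of 0.62 (limma adjusted p = 0.333). Both were higher in both Tip110-/- arrays, as were 11 of 13 Psg genes and 39.9% of all genes. Prl8a8 was near background, and 8499 of the 15071 genes at or below the median gene were also higher in both. The part of trophoblast content in the Psg and Ceacam differences was not tested.

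All 7 fibroblast markers were near background on every array, as were 4 of 5 blood cell markers, among them Ptprc. The exception was the lysosomal and macrophage gene Cd68, at 10.39 and 7.69 against 10.09 and 10.42. Of 7 primitive endoderm markers 3 were near background on every array. One of these 3, Ttr, was past the mark and higher, 1 of 7 against 8.99% of all genes. It was at 3.80 and 3.70 against 4.08 and 4.21 (limma adjusted p = 0.371). Prl3d1 and Prl3b1 had no row with a single symbol and were not analysed here.

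**Figure D4:**
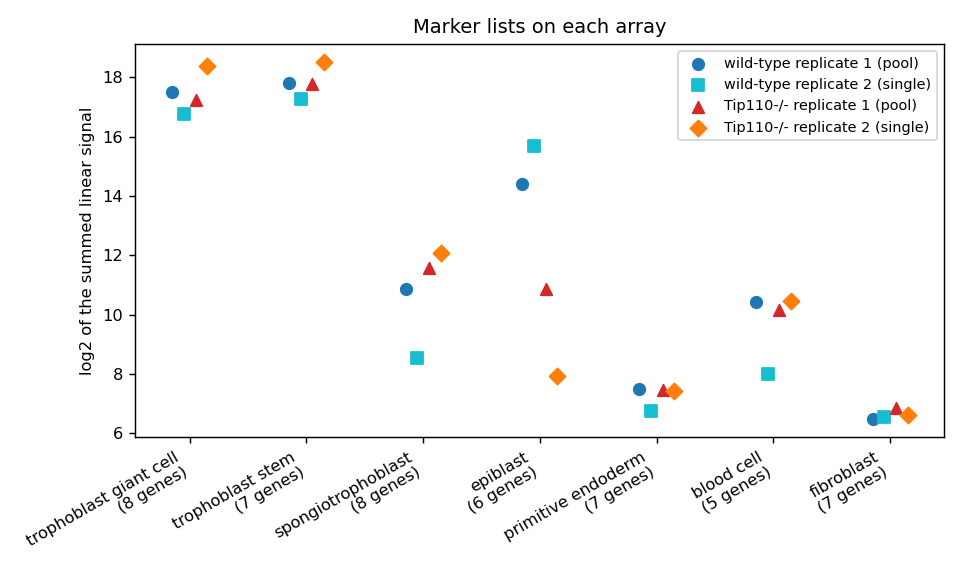
Log2 of the summed linear signal (vertical axis) of 7 marker lists (horizontal axis, with the number of genes measured) on the 4 arrays, 1 symbol per array. The epiblast list is lower in both Tip110-/- arrays, and the giant cell, trophoblast stem, spongiotrophoblast, primitive endoderm and blood cell lists are lowest in the wild-type single outgrowth. The spongiotrophoblast sum mostly repeats Plac8, joined by Prl8a9 in Tip110-/-.

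Ceacam11 and Ceacam13, also next to each other among the members, were the higher Ceacam genes past the mark. Ceacam11 was at 3.92 and 3.71 in wild-type against 4.67 and 4.19 in Tip110-/-, a difference of 0.62 ± 0.21 (SE) (limma adjusted p = 0.376). Ceacam13 was at 3.28 and 3.38 against 3.94 and 3.65, a difference of 0.46 ± 0.14 (SE) (limma adjusted p = 0.345). Both stayed below or near the median of all genes, and neither was past the mark with quantile normalization. The other Ceacam genes of this stretch, Ceacam3, Ceacam5, Ceacam12 and Ceacam14, differed by 0.14 to 0.22, with none past the mark.

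Ceacam16, known from the tectorial membrane of the inner ear, Ceacam18, Ceacam19 and Ceacam20, known from intestinal epithelium, lay at 2.96 to 3.97 on all arrays. They differed by 0.09 to 0.28, with a median of 0.12, and 0 of 4 were past the mark. Over the whole family, 15 members had a mean at or below that of the median gene. Their median difference was 0.25, and that of all 15071 genes at or below it was 0.18.

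Genes known to work with Psg and Ceacam proteins were measured beside them. Of 15 possible binding partners of Psg proteins, 2 were lower and 1 higher past the mark, beside 3.67% and 8.99% of all genes. The tetraspanin gene Cd81 was at 9.72 and 11.55 in wild-type against 8.75 and 8.18 in Tip110-/- (-2.17, limma adjusted p = 0.384). The heparan sulfate proteoglycan gene Gpc4 differed by -4.18 (limma adjusted p = 0.343) and the integrin gene Itgb3 by 1.90 (limma adjusted p = 0.372). Cd9 itself, the PSG17 receptor, was at 11.71 and 12.25 against 12.06 and 11.27, with groups that overlapped and a difference of -0.32 (limma adjusted p = 0.766).

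In the TGF-beta1 list 1 of 11 genes was past the mark, near the 12.7% of all genes. It was Ltbp4, which binds latent TGF-beta, at -0.93 (limma adjusted p = 0.339). Tgfb1 was at 5.42 and 6.64 in wild-type against 5.63 and 4.92 in Tip110-/-, with overlapping groups. Of 8 genes of Ceacam1 signalling 1 was past the mark, also near that share. It was Flna, for the actin-binding filamin A, at 9.96 and 9.72 against 7.08 and 6.88, a difference of -2.86 (limma adjusted p = 0.295). Of 9 candidate regulators of Psg genes 1 was past the mark, again near 12.7%. It was the trophoblast factor Gata2, at 9.41 and 9.16 against 10.43 and 12.47, a difference of 2.16 (limma adjusted p = 0.389).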

How the data were processed

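Total RNA of 4 outgrowth samples was measured on Affymetrix mouse whole-transcript arrays. The authors deposited log2 values for 72688 rows, made with Affymetrix Expression Console and Transcriptome Analysis Console per the submitters' processing notes. The log base was inferred from the values. The sources used here name neither the normalization algorithm nor the genome build. The labels state 144 pg of RNA per array and the series' design text 100 pg.

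Gene names came from the platform annotation, in which 30604 of 65956 transcript rows had 1 symbol, and symbols were updated by Entrez ID for the 22818 found in RefSeq's gene table of GRCm38.p6. The row with the highest mean was kept for each of 30142 genes. Genotype was fitted with limma 3.58.1 (lmFit, eBayes with an intensity trend) in R 4.3.3, with two-sided p-values adjusted by Benjamini-Hochberg over all genes and no filter on level. The fit was tested on simulated data. Promoter windows were aligned with Biopython 1.88, and plots were drawn with matplotlib 3.10.9.

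Every array value is given for members past an unadjusted p of 0.05, the 10 with the highest mean, and the 3 largest differences in each direction above the median gene. Members and lists were chosen with earlier results of these data known. The number of arrays limits the precision, and the labels tie equal replicate numbers to no shared litter or day. Alternatives covered normalization, centring, a filter on dim rows, the variance prior, a replicate term, the mean of a symbol's rows, and leaving out each array.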

Additional observations from a re-analysis of the deposited data

Results flagged for a closer look

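Of the 16 members given by array, 4 had differences between genotypes of opposite signs in pools and in single outgrowths. Tip110-/- minus wild-type was -0.45 in pools and 1.03 in single outgrowths for Psg29, and -0.81 and 4.44 for Psg22. It was -0.01 and 8.48 for Ceacam15, and -0.65 and 4.76 for Ceacam9. Each value rests on 1 array per genotype, so the difference between pools and single outgrowths was not tested. The signs were also opposite in Ceacam12, Ceacam14, Ceacam19 and Ceacam20, which makes 8 of 28 members, beside 35.0% of all genes.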

How the results depend on the processing

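The count of Psg members past the mark, 5, was 3 with quantile normalization, 2 with columns centred on the gene median, 2 with cyclic loess, 3 with only genes above the median gene, where 8 Psg genes were left, and 3 with a replicate block. It was 2 with columns centred on the antigenomic background, an alternative chosen after seeing the data. It ran from 1 to 5 with each array left out, 1 without wild-type replicate 2 (Psg25) and 3 without Tip110-/- replicate 2. The count of Ceacam members, 4, was 2 with quantile normalization, 2 with cyclic loess, 2 above the median gene and 2 in eBayes without trend. It was 3 with a replicate block and ran from 1 to 5 with each array left out, 1 without wild-type replicate 2 (Ceacam1). The share of all genes past the mark moved too, from 12.7% to 9.05% with quantile normalization, 9.08% with centring on the gene median, 9.05% with cyclic loess, 11.5% above the median gene, 10.4% without trend, 11.1% with a replicate block and 9.22% with centring on the background. It was 7.43% without wild-type replicate 2, 8.45% without wild-type replicate 1, 11.8% without Tip110-/- replicate 1 and 18.3% without Tip110-/- replicate 2. The cause of these changes was not tested, except that the filter tests fewer genes.

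The median difference of Psg members, 0.61, kept its direction in all 13 alternatives, from 0.39 with cyclic loess to 0.85 above the median gene, and was 0.41 to 0.76 with each array left out. That of Ceacam members, 0.18, was -0.027 with quantile normalization, 0.018 with centring on the gene median, -0.028 with cyclic loess, -0.65 above the median gene and 0.015 with centring on the background, and 0.10 to 0.32 with each array left out. With an array left out, the lone array of its genotype is assumed to vary like the other group. Among 204 refits of the 16 members given by array, 3 turned the direction, Psg29 at -0.16 without wild-type replicate 2 and -0.011 without Tip110-/- replicate 2, and Psg22 at -0.057 without wild-type replicate 2. With each array left out Psg29 ran from -0.16 to 0.73 and Psg22 from -0.057 to 3.68. A further 40 lost the mark and 5 gained it. Without wild-type replicate 1, Psg22, Psg19 and Ceacam15 passed the mark at 3.68, 5.24 and 8.01, and Ceacam10 at -1.08. The labels do not state that the replicate numbers pair the arrays, so the main fit had no replicate term. Number 1 was a pool and number 2 a single outgrowth in both genotypes. Over genes, the deviations of the arrays numbered 1 correlated at -0.09, which cannot settle whether the arrays are paired.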

Other observations

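Over all 30142 genes, 30 lay lower in the wild-type single outgrowth than in each of the other 3 arrays by at least 3 on the log2 scale, and Ceacam15 had the largest such gap, 7.54. These genes were chosen after their values were seen. Next came the placental cathepsin genes Cts7, at 4.48 in that array against 10.93 in the wild-type pool, 12.28 and 14.54 in Tip110-/-, and Cts8. Pate11 was at 10.35 against 16.47, 17.29 and 17.71, and Pate12 at 10.58 against 16.63, 17.55 and 16.83. The steroid dehydrogenase gene Hsd3b6 was at 4.04 against 12.10, 12.24 and 7.82, and the tissue factor pathway inhibitor gene Tfpi at 11.67 against 15.15, 14.67 and 16.17. Psg19 was also among the 30. The genes named here are only some of these. Gm26202, Ttc9, Arhgdib, Il1r2 and Mir297c had wider gaps than Hsd3b6, Psg19 and Tfpi. A gap of at least 3 below the other arrays was seen for 7 genes in the wild-type pool, 15 in the Tip110-/- pool and 28 in the Tip110-/- single outgrowth.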
